A study of Mus musculus with 7 samples.

Results

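The receptors for the Fc part of immunoglobulin were followed across 7 arrays of macrophages sorted from the mouse colon. The set comprised 6 genes chosen by name, Fcgr1, Fcgr2b, Fcgr3, Fcgr4, Fcer1g and Fcgrt, and 5 of them had a probe set with a single gene symbol, among the 19938 genes tested. Fcgrt, which encodes the heavy chain of the neonatal Fc receptor FcRn, is not analysed here. Each measured member had 1 probe set, and all 5 lay far above the median of all values (log2 5.86) in every array.

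All mice were of the C57BL/6 background and 6 weeks old, and the cells came from the lamina propria, the connective tissue layer under the gut epithelium. Il10ra_mKO stands for CX3CR1cre:IL10Raflox/flox mice, in which Cre recombinase made from the Cx3cr1 gene deletes the floxed ligand-binding chain of the interleukin-10 receptor (2 arrays, cells labelled resident). Their reference, resident WT, comprised 3 arrays from CX3CR1gfp/+ mice, which carry a green fluorescent protein in place of 1 Cx3cr1 allele. Il10_KO stands for IL10-/- CX3CR1gfp/+ mice (1 array, cells labelled CX3CR1hi), with 1 array of CX3CR1hi cells from CX3CR1gfp/+ mice as their WT reference. The labels call the deletion macrophage-restricted. Resident WT carried no Cre, and the Il10ra_mKO label names no green fluorescent protein allele. The deletion is thus not separable from the Cre allele or from the fluorescent protein allele: these cannot be told apart. The labels do not say whether an array held 1 animal or a pool, nor whether a group's arrays are different animals. The p-values therefore reflect the scatter of these arrays alone, which could be technical. The sort label goes with the RNA extraction kit, and differences are therefore tested only within a sort label.

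Fc gamma receptors bind the constant part of IgG and let phagocytes take up antibody-coated microbes, cells and immune complexes. Fcgr1 encodes the high-affinity receptor, and Fcgr3 and Fcgr4 encode low- to intermediate-affinity receptors. These activating receptors signal through the shared chain Fcer1g, whose tyrosine motif (ITAM) recruits the kinase Syk. Fcgr2b is the inhibitory member and carries the opposite kind of motif (ITIM), which recruits phosphatases such as SHIP1, the product of Inpp5d. The level of the activating receptors relative to Fcgr2b is known to set how strongly a macrophage responds to immune complexes.

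In short, Fcgr1 and Fcgr4 lay higher in both Il10ra_mKO arrays than in every resident WT array, by 1.52-fold and 1.77-fold. Fcgr3 and the shared chain Fcer1g differed by less, and Fcgr2b by least. Set against Fcgr2b within each array, the mean of the activating receptors was higher in both Il10ra_mKO arrays than in every resident WT array. It was also higher in the lone Il10_KO array than in its lone WT array, where 46.2% of all genes were higher on that scale. No member passed the test over all genes.

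The labels were checked first. Il10ra stood at log2 8.05 and 7.04 in the Il10ra_mKO arrays, against 10.56, 10.76 and 11.12 in resident WT, a difference of -3.27 (adjusted p = 0.243 in limma), and the groups did not overlap. The Il10 transcript stood at 10.75 in the Il10_KO array, against 11.04 in CX3CR1hi WT. Where its probes lie with respect to the deletion is unknown here, so this value checks nothing and the Il10_KO genotype rests on its label. Among 9 measured macrophage markers all lay above the median of all values, and the highest, the complement gene C1qb, lay between 12.80 and 13.36 over the 7 arrays. The mean of these markers was 11.88 and 12.08 in the Il10ra_mKO arrays, against 11.76 to 11.89 in resident WT, and 12.22 in the Il10_KO array, against 11.96 in CX3CR1hi WT. Transcripts of other cells were also present. The mean of 10 epithelial markers was 10.91 and 9.25 in the Il10ra_mKO arrays, against 10.67 to 11.09 in resident WT, and 10.90 in the Il10_KO array, against 11.40 in its WT. In RNA of a sorted population, fewer cells of a type and less RNA per cell cannot be told apart.

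The promoters of Fcgr1 and Fcgr4, the activating pair with the largest differences in Il10ra_mKO, are printed with that of inhibitory Fcgr2b. They were picked since these 3 genes carry the contrast between activating and inhibitory receptors. Sequences are from RefSeq (mouse build GRCm38.p6), give the 250 bases before the gene start, and run 5′ to 3′ on the gene's strand. The Fcgr1 window is chr3:96293970-96294219 on the minus strand, the Fcgr4 window chr1:171018676-171018925 on the plus strand and the Fcgr2b window chr1:170976072-170976321 on the minus strand. Capitals mark matches, on either strand, to the core of the interferon-stimulated response element bound by IRF proteins (GAAA, any 2 bases, GAAA) or the core of the site of the macrophage factor PU.1 (GAGGAA).
Fcgr1: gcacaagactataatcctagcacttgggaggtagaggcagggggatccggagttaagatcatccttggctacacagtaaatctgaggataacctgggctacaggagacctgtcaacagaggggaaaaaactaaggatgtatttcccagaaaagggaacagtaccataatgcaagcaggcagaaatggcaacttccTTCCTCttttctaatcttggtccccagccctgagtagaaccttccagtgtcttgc
Fcgr4: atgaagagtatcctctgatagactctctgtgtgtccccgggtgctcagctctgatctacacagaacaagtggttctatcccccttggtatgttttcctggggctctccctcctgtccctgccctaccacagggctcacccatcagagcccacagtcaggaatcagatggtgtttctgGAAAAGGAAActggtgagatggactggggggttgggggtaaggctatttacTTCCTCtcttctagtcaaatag
Fcgr2b: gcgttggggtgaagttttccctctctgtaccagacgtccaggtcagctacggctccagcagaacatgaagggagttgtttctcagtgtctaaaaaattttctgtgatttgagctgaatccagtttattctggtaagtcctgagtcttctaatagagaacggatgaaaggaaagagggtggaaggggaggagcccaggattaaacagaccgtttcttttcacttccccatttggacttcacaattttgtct
The Fcgr1 window held 1 PU.1 core, at 55 to 50 bases before the start. The Fcgr4 window held 1 match to the response element, GAAAAGGAAA, at 73 to 64 bases before the start, and 1 PU.1 core at 22 to 17 bases. None of these matches overlapped another. The Fcgr2b window held 0 matches to either motif, as did those of Fcer1g and Fcgrt. Both windows of Fcgr3 held 1 PU.1 core, and it was the same site, since these windows overlap. Among 32851 RefSeq windows of the same length, 2.98% held the response element core and 23.3% the PU.1 core. A match is a run of letters, not a shown binding site, and binding was not measured.

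Fcgr1, the high-affinity IgG receptor, stood at log2 10.60 and 10.70 in the Il10ra_mKO arrays, against 9.85, 10.05 and 10.24 in resident WT. Both mutant arrays lay above the highest WT array. The difference was 0.61 ± 0.14 (SE, limma, 2 against 3 arrays), with a 95% confidence interval of 0.21 to 1.00, an unadjusted p of 0.0131 and an adjusted p of 0.433 over all genes. In the CX3CR1hi arrays Fcgr1 stood at 10.63 in Il10_KO, against 10.13 in WT. That is a difference of 0.50 ± 0.21 (SE), or 1.42-fold, with an interval of -0.10 to 1.11 and an adjusted p of 0.299 in the limma fit, which takes the spread of these lone arrays from the resident groups.

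Fcgr4, a receptor of monocytes, macrophages and neutrophils, gave 11.90 and 12.11 in the Il10ra_mKO arrays, against 10.84, 11.23 and 11.48 in resident WT. The groups did not overlap, and the resident WT arrays were spread more widely than for any other member (SD 0.32). The difference of 0.82 ± 0.23 (SE) was the largest among the 5 members, with an interval of 0.18 to 1.47, an unadjusted p of 0.0245 and an adjusted p of 0.512 in limma. Only 1.43% of all genes had a difference at least as high. In the Il10_KO array Fcgr4 was at 11.71, against 11.43 in CX3CR1hi WT, a difference of 0.28 ± 0.35 (SE, adjusted p = 0.716 in limma).

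Fcgr3, the other low-affinity activating receptor, was at 12.09 and 12.15 in the Il10ra_mKO arrays, against 11.90, 11.89 and 12.06 in resident WT. The groups were separate by a small margin, with a difference of 0.17 ± 0.08 (SE, interval -0.05 to 0.39, adjusted p = 0.678 in limma). It was 0.09 after quantile normalization across arrays. In Il10_KO it stood at 12.27, against 12.05 in CX3CR1hi WT (0.23 ± 0.12, SE, adjusted p = 0.392 in limma).

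Fcer1g, the signalling chain that the activating receptors need to reach the cell surface, was at 12.98 and 13.10 in the Il10ra_mKO arrays, against 12.80, 12.95 and 12.98 in resident WT. The lower mutant array equalled the highest WT array, so the groups touched. The difference was 0.13 ± 0.09 (SE, interval -0.11 to 0.38, adjusted p = 0.678 in limma). In Il10_KO Fcer1g was at 13.03, against 12.86 in CX3CR1hi WT (0.17 ± 0.13, SE, adjusted p = 0.568 in limma).

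Fcgr2b, the inhibitory receptor, was at 12.70 and 12.80 in the Il10ra_mKO arrays, inside the range of 12.50, 12.68 and 12.90 in resident WT. The difference was 0.05 ± 0.14 (SE, adjusted p = 0.917 in limma), and its interval of -0.35 to 0.46 leaves room for a change in either direction. Its sign turned under quantile normalization and when resident WT array 1 or Il10ra_mKO array 2 was left out. In Il10_KO Fcgr2b was at 12.53, against 12.48 in CX3CR1hi WT (0.05 ± 0.22, SE, adjusted p = 0.933 in limma).

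**Figure D1:**
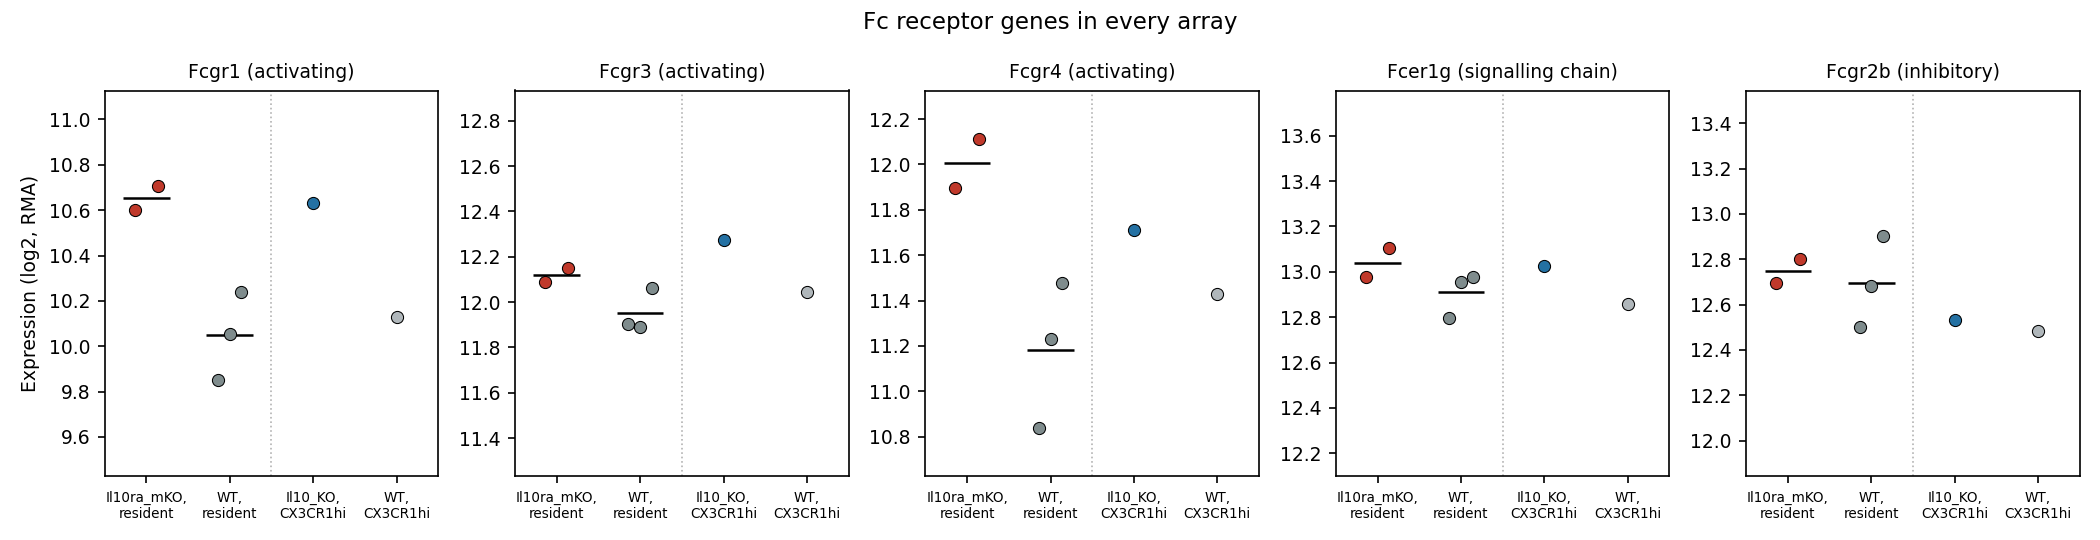
Expression (log2, RMA) of the 5 measured Fc receptor genes in every array, by group. Points are arrays, horizontal bars are means of groups with more than 1 array, the dotted line divides the sort labels, and all panels span the same number of log2 units. Fcgr1 and Fcgr4 lie higher in both Il10ra_mKO arrays (10.60 and 10.70, and 11.90 and 12.11) than in every resident WT array, while Fcgr2b overlaps.

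Set against all genes, 0 of the 5 members passed in Il10ra_mKO against WT at an adjusted p under 0.05, where 0.0% of all genes passed upward and 0.00502% downward. Of the 5, 0 lay lower at an unadjusted p under 0.05 or lay below WT in both mutant arrays, against 3.86% and 8.5% of all genes. At an unadjusted p under 0.05, 2 of 5 lay higher (Fcgr1 and Fcgr4), against 4.06% of all genes and 7.0% of the genes at least as bright as the dimmest member. Both Il10ra_mKO arrays lay above all 3 resident WT arrays for 3 of 5 members, against 8.92% of all genes and 16.7% of the 1028 genes whose mean level was at least that of the dimmest member. The difference was above 0 for 5 of 5 members, against 48.5% of all genes, and the members' median was 0.17 against a median of 0.00 over all genes. In Il10_KO against WT 0 of 5 passed, where 3.2% of all genes passed upward and 4.7% downward. That difference too was above 0 for 5 of 5 members, against 56.3% of all genes, with a median of 0.23 against 0.03. Nearly all calls over all genes in Il10_KO against WT were lost when dim genes were left out. Those are genes above the median of all values in fewer than 2 arrays. The same held for the difference of the mutant effects, taken up next, and the measured members are all bright.

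Both mutant genotypes were then set against each other, since the series includes the receptor deletion and the loss of IL-10 itself. The effect in Il10ra_mKO minus the effect in Il10_KO was 0.54 ± 0.42 (SE, interval -0.65 to 1.73, adjusted p = 0.744 in limma) for Fcgr4. It was 0.10 ± 0.26 (SE, interval -0.62 to 0.82) for Fcgr1. For the other 3 members it lay between -0.06 and 0.01, with adjusted p of 0.971 to 1.00 in limma. Of the 5 members 0 passed, where 4.7% of all genes passed in either direction, and the intervals are too wide to show that the genotypes act alike.

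**Figure D2:**
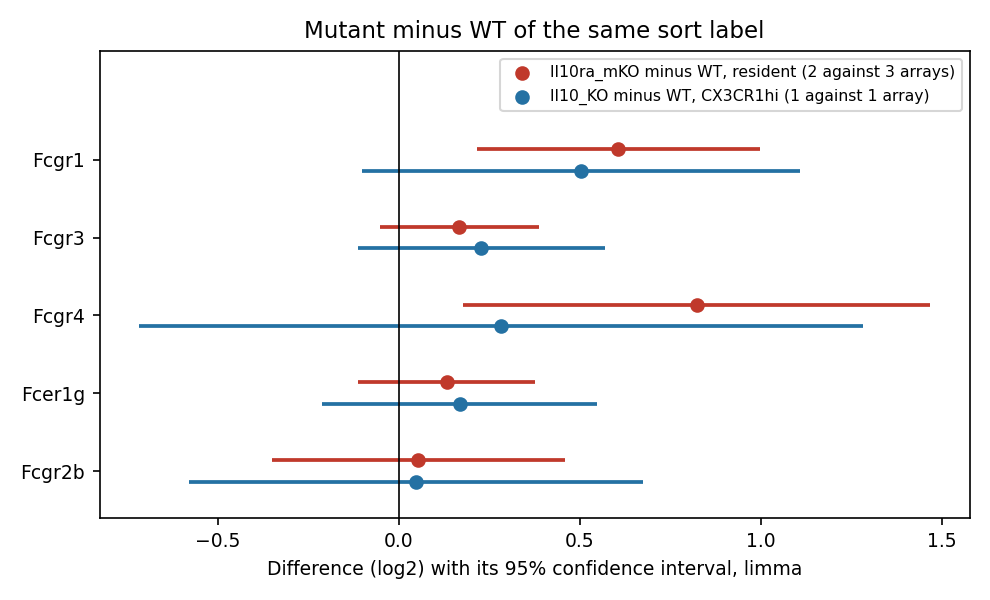
Mutant minus WT of the same sort label (log2) for each measured Fc receptor gene, as points with 95% confidence intervals from limma, in red for Il10ra_mKO (2 against 3 arrays) and in blue for Il10_KO (1 against 1 array, with the spread taken from the resident groups). The intervals of Fcgr1 (0.21 to 1.00) and Fcgr4 (0.18 to 1.47) in Il10ra_mKO lie above 0 before adjustment over all genes, and the others include 0.

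Activating receptors were next compared with Fcgr2b within each array, as the mean log2 value of Fcgr1, Fcgr3 and Fcgr4 minus that of Fcgr2b. Probe sets differ in brightness for the same amount of RNA, so the size of this value has no meaning of its own and only its differences between arrays are read. It was -1.17 and -1.15 in the Il10ra_mKO arrays, against -1.64, -1.62 and -1.64 in resident WT. Within each group the arrays nearly coincided (SD 0.01 over the 3 WT arrays), although single receptors varied more between WT arrays, Fcgr4 between 10.84 and 11.48. Relative to Fcgr2b, Fcgr3 and Fcgr4 each had an SD of 0.13 over the WT arrays. From WT array 1 to 3 Fcgr3 fell and Fcgr4 rose on that scale, and these movements offset each other in the mean. Groups differed by 0.48, a ratio 1.39-fold higher in Il10ra_mKO. In the Il10_KO array the value was -0.99, against -1.28 in CX3CR1hi WT, a difference of 0.29, or 1.22-fold. No p is given, because the receptors were chosen with earlier results known.

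Each activating receptor was also set against Fcgr2b alone. Fcgr4 minus Fcgr2b was -0.80 and -0.69 in the Il10ra_mKO arrays, against -1.66, -1.45 and -1.42 in resident WT, a difference of 0.77. Fcgr1 minus Fcgr2b was -2.09 and -2.10 in the Il10ra_mKO arrays, against -2.65, -2.63 and -2.66 in resident WT, a difference of 0.55. For both receptors the groups did not overlap, and no p is given here either. Fcgr3 minus Fcgr2b overlapped, at -0.61 and -0.65 in Il10ra_mKO, against -0.60, -0.79 and -0.84 in resident WT. The value relative to Fcgr2b was higher in both Il10ra_mKO arrays than in all resident WT for 5.52% of all genes. In Il10_KO minus CX3CR1hi WT, the differences relative to Fcgr2b were 0.46 for Fcgr1, 0.23 for Fcgr4 and 0.18 for Fcgr3, where 46.2% of all genes were higher on that scale. Taking the median of the activating receptors in place of their mean gave 0.77 for Il10ra_mKO, since Fcgr4 was the middle of the 3 in every array.

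**Figure D3:**
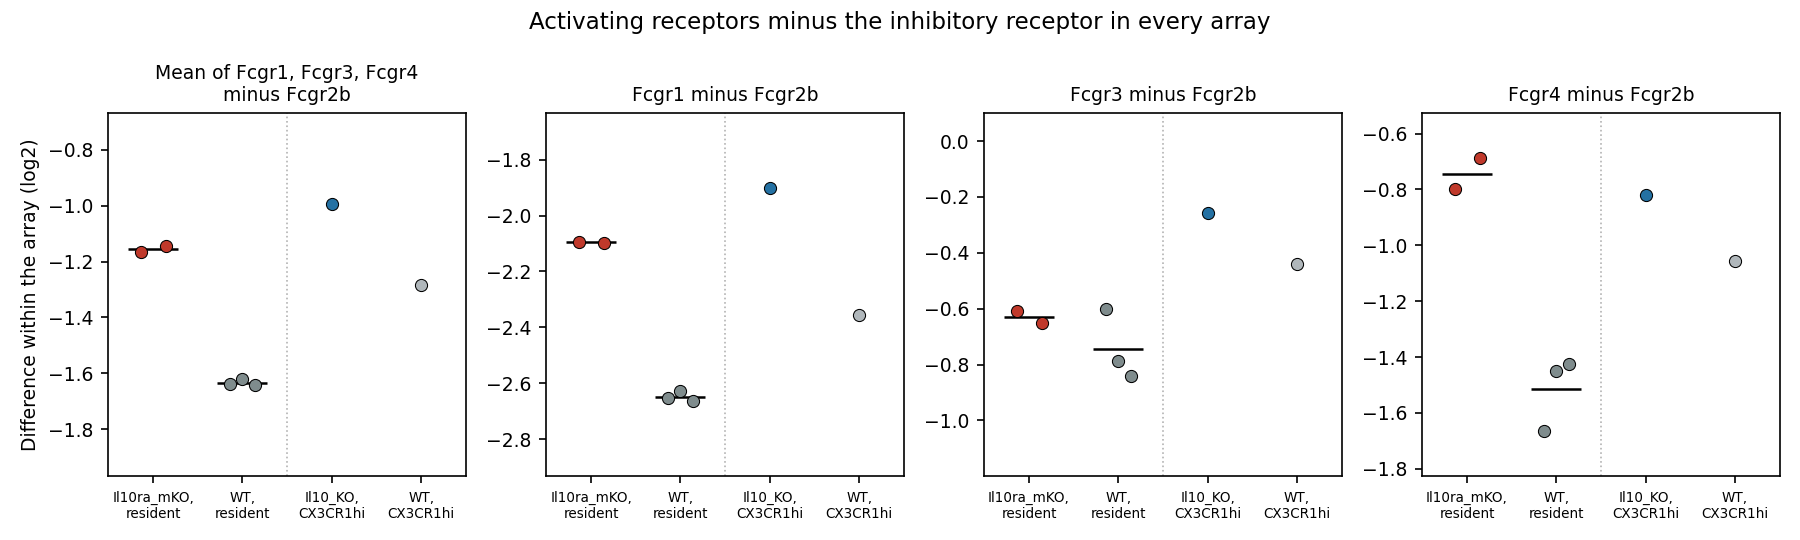
Activating receptors minus Fcgr2b within each array (log2), for the mean of Fcgr1, Fcgr3 and Fcgr4 and for each receptor alone. Points are arrays and bars are group means. The mean lies at -1.17 and -1.15 in Il10ra_mKO against -1.64 to -1.62 in resident WT, and at -0.99 in Il10_KO against -1.28 in CX3CR1hi WT, while Fcgr3 minus Fcgr2b overlaps between the resident groups.

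The activating receptors also parted from one another. Relative to Fcgr3, Fcgr4 was at -0.19 and -0.04 in the Il10ra_mKO arrays, against -1.06, -0.66 and -0.58 in resident WT, a difference of 0.66, and Fcgr1 differed by 0.44. In Il10_KO against WT the value of Fcgr4 relative to Fcgr3 differed by 0.05 and that of Fcgr1 by 0.28. Relative to the signalling chain Fcer1g, Fcgr4 differed by 0.69 and Fcgr1 by 0.47 in Il10ra_mKO, and Fcgr3 by 0.04. Each member was also set against the mean of the macrophage markers in the same array, a comparison added after the data were seen. On that scale Fcgr1 was at -1.27 and -1.38 in the Il10ra_mKO arrays, against -2.02, -1.71 and -1.65 in resident WT. Fcgr4 was at 0.02 and 0.03, against -1.03, -0.53 and -0.41. Both stayed apart, as did 4.77% of all genes in the same direction, while Fcgr3, Fcer1g and Fcgr2b overlapped. In Il10_KO minus CX3CR1hi WT the corresponding differences were 0.24 for Fcgr1, 0.02 for Fcgr4 and -0.03 for Fcgr3. They were -0.09 for Fcer1g and -0.21 for Fcgr2b. Of the 9 markers in that mean, 2 lay above resident WT in both Il10ra_mKO arrays and 1 below, against 8.92% and 8.5% of all genes. The 1 below was Cx3cr1, the gene that the Cre and fluorescent protein alleles alter, at 10.11 and 10.44, against 10.70 to 10.85.

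Neighbouring sample numbers in the resident labels fall into the runs 54 to 56 and 67 to 68, each with both genotypes. What the numbers stand for is not given. Within the first run Fcgr1 differed by 0.65 and Fcgr4 by 0.86, and within the second by 0.46 and 0.63. Fcgr3 differed by 0.19 and 0.09, and Fcer1g by 0.10 and 0.13. Fcgr2b differed by 0.10 in the first run and by -0.10 in the second. The activating mean relative to Fcgr2b differed by 0.46 and 0.50. The signs were thus the same in both runs for every member except Fcgr2b.

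Among WT arrays, the CX3CR1hi array lay 0.25 above the resident mean for Fcgr4 and 0.21 below it for Fcgr2b, and the other members were within 0.09. These values are set side by side only, since sort label and extraction kit cannot be told apart.

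Of the 6 members, 4 lie close together on chromosome 1 in the order Fcgr2b, Fcgr4, Fcgr3 and Fcer1g, and Fcgr1 lies on chromosome 3. Fcgr2b and Fcgr3 are near-identical over part of their coding sequence, so their probe sets may share signal and their values are uncertain to that extent. The genes around them were compared in Il10ra_mKO against resident WT. Of the 15 measured genes between or next to the clustered members, 2 lay above WT in both mutant arrays and 1 below, against 8.92% and 8.5% of all genes, with a median difference of 0.03. The highest of these was Fcrlb, an Fc receptor-like gene on the outer side of Fcgr2b, at 6.41 and 6.37 in the Il10ra_mKO arrays, against 5.71, 5.46 and 5.86 in resident WT. Of the 8 genes around Fcgr1, 4 of them histone genes, 2 lay above WT, with a median of 0.06. The lowest adjusted p among all these neighbours was 0.374 in limma.

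Genes with the most similar pattern were sought among 9633 genes by the root mean square difference of profiles centred on their own mean over the 7 arrays. Closest to Fcgr1 were Mocs1 (0.06 log2 units), Cd302, a C-type lectin-like receptor (0.07), and Cstb, the cysteine protease inhibitor cystatin B (0.07). Closest to Fcgr4 were Dna2 (0.10), Mocs1 (0.11) and Clcf1 (0.12). Ssr3, Gdi2 and Exo5 came closest to Fcgr2b (0.03 to 0.05), Lsm14b, Bnip3l and Tspyl1 to Fcgr3 (0.04 each) and Map2k2, Bap1 and Cd82 to Fcer1g (0.02 to 0.03). The measure is smaller for genes that vary less, and it takes in differences between the sort labels, which go with the kit. Within the set, Fcgr3 and Fcer1g were nearest each other (0.09), Fcgr1 was nearest Fcgr4 (0.13), and Fcgr2b and Fcgr4 were farthest apart (0.35).

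Other immunoglobulin receptors gave differences in both directions. Of 13 measured, 9 had a difference above 0 in Il10ra_mKO, against 48.5% of all genes, with a median of 0.17. In limma 1 passed downward, against 0.00502% of all genes. That was Fcrls, an Fc receptor-like gene known as a marker of microglia. It was at 6.49 and 6.59 in the Il10ra_mKO arrays, against 10.86, 10.91 and 10.73 in resident WT (adjusted p = 0.0194), and it also fell in Il10_KO (9.78 against 10.93, adjusted p = 0.0192). The first call was lost with the run of sample numbers as a term and when any one resident WT array was left out, with differences of -4.34 to -4.24 over 14 alternatives. The second was lost under 6 of 12, all WT arrays as 1 control group and leaving out resident WT array 1 or 2 among them, with differences of -1.30 to -1.08. Fcrlb, an Fc receptor-like gene near Fcgr2b, differed by 0.54 in Il10_KO. Fcer2a, the low-affinity IgE receptor, differed by 0.74 in Il10ra_mKO through array 2 alone (4.89 and 6.22, against 4.66 to 4.89). Pigr, the epithelial transporter of IgA, was at 11.36 and 10.20 in Il10ra_mKO, against 11.73 to 12.06 in resident WT, and the epithelial markers given above were also lowest in Il10ra_mKO array 2. The mast cell receptor genes Fcer1a and Ms4a2 lay below the median of all values in every array. Fcmr, the IgM receptor of B cells, was at 5.66 and 6.82 in Il10ra_mKO, against 5.07 to 5.61 in resident WT.

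The signalling genes below the activating receptors were compared in the same way. Of 16 measured, 15 had a difference above 0 in Il10ra_mKO (median 0.41), 5 reached an unadjusted p under 0.05 upward and 0 passed, and both mutant arrays lay above resident WT for 11, against 4.06% and 8.92% of all genes. The other 5, Btk, Vav3, Pik3cg, Pik3ap1 and Card9, overlapped WT, and Pik3cg differed by -0.15. Syk, the kinase that docks on the ITAM, was at 9.99 and 10.25 in Il10ra_mKO, against 9.65, 9.56 and 9.77 in resident WT, a difference of 0.46 ± 0.12 (SE, adjusted p = 0.471 in limma). The Src-family kinase gene Fgr differed by 0.80, the adaptor gene Lat2 by 0.64 and Plcg2, a phospholipase, by 0.63. In Il10_KO 16 of 16 differences were above 0, with a median of 0.46, led by Was, an actin regulator (0.73), and Pik3cd, a PI3 kinase subunit (0.72).

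Genes that restrain Fc receptor signalling were taken as a second list. Of 12 measured, 11 lay above 0 in Il10ra_mKO with a median of 0.22. An unadjusted p under 0.05 upward was reached by 2, against 4.06% of all genes in limma. Both mutant arrays lay above WT for 2, against 8.92% of all genes. Ptpn6, the SHP-1 phosphatase, differed by 0.46 ± 0.11 (SE, adjusted p = 0.442 in limma), at 10.10 and 10.35 in Il10ra_mKO, against 9.81, 9.66 and 9.83 in resident WT. Inpp5d, which encodes the phosphatase SHIP1 used by Fcgr2b, differed by 0.04. Pag1, Cblb and Dok1 differed by 0.73, 0.70 and 0.54, and of these Cblb alone was separate between groups. In Il10_KO 12 of 12 lay above 0 with a median of 0.36, led by Cd300a (0.77) and Dok2 (0.73). No member of either signalling list passed in either comparison.

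Other receptors that pair with Fcer1g were led by C-type lectins. Of 6 measured, 5 lay above 0 in Il10ra_mKO (median 0.46). Both mutant arrays lay above WT for 4, against 8.92% of all genes. Clec4e, which senses mycobacterial glycolipid, was at 11.74 and 10.56 in the Il10ra_mKO arrays, against 8.68, 6.56 and 8.60 in resident WT (3.21 ± 0.88, SE, adjusted p = 0.511 in limma). Clec4d differed by 1.61, Cd300c2 by 0.54 and Clec4n by 0.37. In Il10_KO Clec4e was at 9.46, against 7.47 in CX3CR1hi WT, and 6 of 6 lay above 0 with a median of 0.36. Among 6 other adaptor genes, 6 lay above 0 in Il10ra_mKO, with a median of 0.38. Tyrobp (DAP12), which works beside Fcer1g in macrophages, differed by 0.33 ± 0.09 (SE), at 12.20 and 12.37 in Il10ra_mKO, against 11.90, 11.93 and 12.05 in resident WT. Cd79a and Cd79b, of the B cell receptor, differed by 1.14 and 0.43, and Cd3e, of the T cell receptor, by 0.47, all without passing. Hcst, the adaptor of the receptor NKG2D, passed upward in Il10_KO, at 6.10 against 5.38 (adjusted p = 0.0396 in limma, 1 array against 1). Its WT value lay below the median of all values, and the call was lost under 7 of 11 alternatives (adjusted p up to 0.344), all WT arrays as 1 control group among them.

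Other ITIM receptors ranged more widely than Fcgr2b. Of 12 measured, 9 lay above 0 in Il10ra_mKO with a median of 0.33. In both mutant arrays 4 were above and 1 below resident WT, against 8.92% and 8.5% of all genes. Cd300lf was at 8.0 and 8.53 in Il10ra_mKO, against 5.24, 5.14 and 5.31 in resident WT (3.04 ± 0.19, SE, adjusted p = 0.128 in limma), and it passed in Il10_KO (7.94 against 5.90, adjusted p = 0.0377, 1 array against 1). That call was lost under 8 of 12 alternatives (adjusted p up to 0.293), while the difference stayed between 1.77 and 2.54. Clec12a differed by 1.42 in Il10ra_mKO and by 1.41 in Il10_KO, Pirb by 0.74 and 0.24, and Cd22, a receptor best known from B cells, by 0.68 and 0.85. In Il10_KO 11 of 12 lay above 0, with a median of 0.27.

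Of the transcription factors known to act on Fc gamma receptor genes 7 were measured, and 7 lay above 0 in both comparisons, with medians of 0.22 in Il10ra_mKO and 0.37 in Il10_KO, and 0 passed. Irf1, an interferon-induced factor of the IRF family, was at 11.79 and 11.37 in Il10ra_mKO, against 10.84, 10.42 and 10.27 in resident WT, a difference of 1.07 ± 0.24 (SE, adjusted p = 0.428 in limma). Cebpb differed by 1.27, Irf8 by 0.38 and Spi1, which encodes PU.1, by 0.22 with overlapping groups. Phagocytosis genes lay above 0 for 13 of 14 in Il10ra_mKO (median 0.40). Both mutant arrays lay above WT for 11 and below for 1, against 8.92% and 8.5% of all genes. Ncf1, an NADPH oxidase subunit, differed by 0.69, Itgb2, the beta chain of the complement receptor CR3, by 0.61, Myo1g by 0.55 and Cyba by 0.47. The gene below WT was Itgam, the alpha chain of CR3, at 10.80 and 10.66, against 10.87 to 11.14. In Il10_KO Myo1f, a myosin, differed by 0.61 and Myo1g by 0.57, and 13 of 14 lay above 0, with a median of 0.45, and 0 passed.

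FcRn itself is not reported, but its partner and recycling genes were measured. Of 8, 2 lay above 0 in Il10ra_mKO, with a median of -0.12. Both mutant arrays lay below WT for 3 of the 8, against 8.5% of all genes. B2m, the light chain that FcRn shares with MHC class I, differed by 0.10 in Il10ra_mKO and by 0.06 in Il10_KO, with overlapping groups. Rab25 and Myo5b, recycling genes of polarised epithelium, differed by -0.92 and -0.70, beside epithelial markers with a median difference of -0.80. Both were lowest in Il10ra_mKO array 2. Rab25 was at 10.06 and 8.76, against 10.15 to 10.70 in resident WT. Myo5b was at 8.18 and 6.895, against 7.92 to 8.62, and the groups overlapped. Rab4a was at 6.31 and 6.35 in Il10ra_mKO, against 6.64, 7.09 and 7.24 in resident WT (-0.66 ± 0.21, SE, adjusted p = 0.576 in limma). Rab11fip1 differed by 0.21. In Il10_KO Rab25 and Rab4a differed by -0.73 and -0.69, and 3 of 8 lay above 0, with a median of -0.14.

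**Figure D4:**
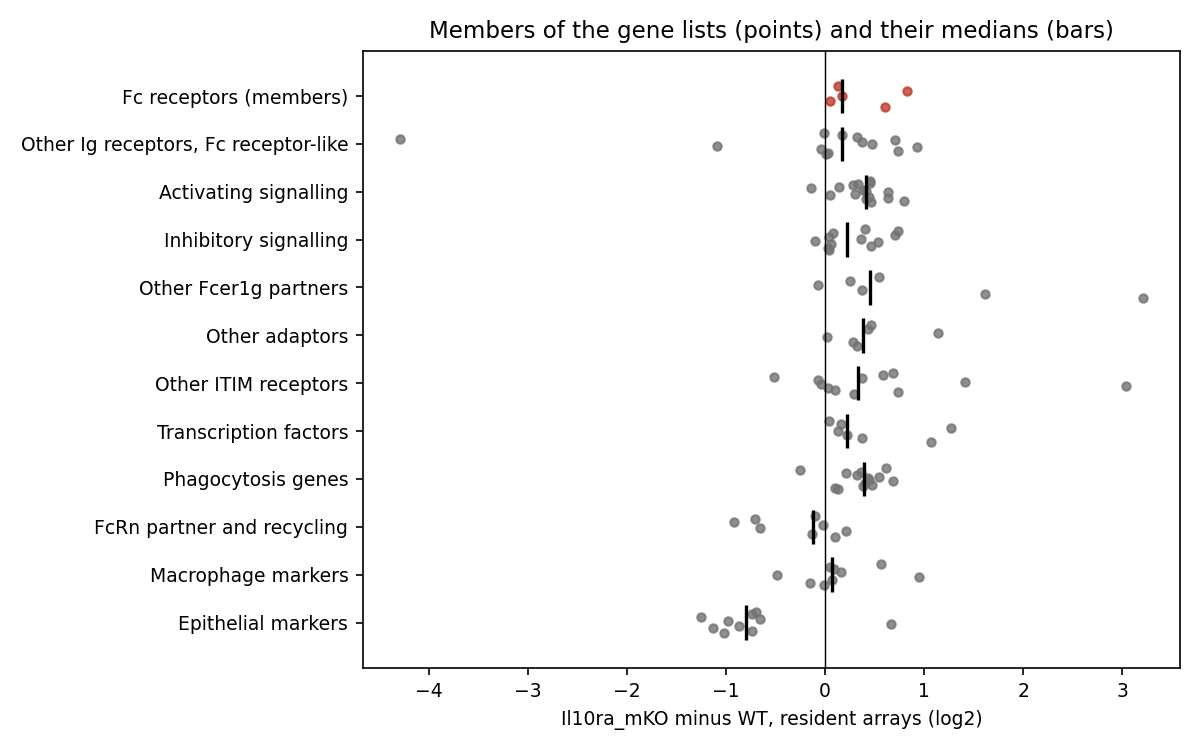
Il10ra_mKO minus resident WT (log2) for every measured gene of the Fc receptor set (red), of the other lists and of 2 marker lists (grey), with list medians as bars. The members' median is 0.17, that of the activating signalling genes 0.41, that of the inhibitory signalling genes 0.22, and that of the epithelial markers -0.80.

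Markers of other cells that carry Fc receptors were set beside these values. Neutrophil markers, of cells rich in Fcgr4, averaged 6.28 and 5.89 in the Il10ra_mKO arrays, against 5.65 to 5.70 in resident WT, and 5.81 in Il10_KO, against 5.63 in CX3CR1hi WT. Of these 10 genes 5 (Mpo, Elane, Cxcr2, Ngp and Camp) lay below the median of all values in every array. The highest, Csf3r, was at 9.60 and 10.01 in Il10ra_mKO, against 8.33 to 8.98 in resident WT. In both mutant arrays 6 of the 10 lay above resident WT and 0 below, against 8.92% and 8.5% of all genes. Ly6g was at 9.70 and 8.10 in Il10ra_mKO, against 6.95 to 8.17 in resident WT, with overlapping groups. Monocyte markers averaged 8.37 and 7.68, against 7.42 to 7.70, with Vcan and Chil3 of the 6 below the median of all values, and Ccr2 at 10.65 and 10.64, against 9.75 to 11.33. B and plasma cell markers, of cells that express Fcgr2b, averaged 7.73 and 8.12, against 7.43 to 7.62, with 0 of 9 below that median and Jchain highest at 11.36 and 11.46, against 11.55 to 11.60. In both mutant arrays 3 of the 9 (Ms4a1, Cd79a and Mzb1) lay above resident WT and 2 below, against 8.92% and 8.5% of all genes. Ms4a1 was at 6.72 and 8.16, against 5.70 to 6.19. The part of these cells in the Fc receptor values was not tested.

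The remaining marker lists are given by their means. Mast cell and basophil markers averaged 4.82 to 5.21 over the 7 arrays, 9 of 10 lay below the median of all values, and Kit, the highest, reached 7.31. Lymphocyte markers of the T, NK and innate type averaged 5.52 and 5.59 in Il10ra_mKO, against 5.32 to 5.49, with 6 of 8 below the median of all values, Ncr1 and Cd3d among them, and Il7r highest. Dendritic cell markers averaged 6.43 and 6.67, against 6.06 to 6.34. In both mutant arrays 6 of these 10 lay above and 2 below resident WT, against 8.92% and 8.5% of all genes. Ccr7, the brightest over the 7 arrays, was at 9.57 and 9.92, against 6.64 to 8.07, whereas Cd209a was at 6.47 and 7.16, against 8.63 to 9.65. Clec9a differed by 2.91 and Siglech by -1.61. Fibroblast and endothelial markers averaged 6.27 and 6.19, against 6.79 to 7.19, with a median difference of -0.78. In both mutant arrays 8 of these 10 lay below and 0 above resident WT, against 8.5% and 8.92% of all genes. Dcn, the highest, was at 9.26 and 9.68, against 10.63 to 11.39. Krt8, the highest epithelial marker, was at 12.88 and 11.50, against 12.77 to 13.08.

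The statements on Fcgr1 and Fcgr4 rest on the separation of 2 from 3 arrays. The unadjusted p of Fcgr1 was above 0.05 when Il10ra_mKO array 1 (0.0573) or array 2 (0.0822) was left out, and that of Fcgr4 when resident WT array 2 (0.0700) or Il10ra_mKO array 1 (0.0793) or array 2 (0.134) was left out.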

How the data were processed

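Total RNA of sorted macrophages was measured on 7 Affymetrix arrays. The deposited values are log2 expression per probe set, made with RMA and Partek, per the submitters' processing notes, with versions, genome build and whether arrays were normalized together not stated. Precision is limited by having 7 arrays. Of 35399 rows, 21789 had exactly 1 gene symbol in the platform table, 1621 several and 11989 none, and 21698 were matched by gene ID to RefSeq (GRCm38.p6), which changed 0 symbols. The brightest row was kept for the 999 genes with several, leaving 19938 genes. No filter was applied.

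limma 3.58.1 in R 4.3.3 was fitted to the 4 groups of genotype and sort label over all 7 arrays (eBayes with a trend, 3 residual degrees of freedom, prior 0.831), with two-sided p-values adjusted over all genes by Benjamini-Hochberg and a threshold of 0.05. The lone CX3CR1hi arrays are assumed to vary as the resident arrays do. The fit was tested on simulated data. Replicate numbers follow accession order and pair nothing. Genes named are the members, Il10ra and Il10, the 3 genes nearest to each member in pattern, the pathway-list genes that passed or had the largest differences (4 in Il10ra_mKO, 2 in Il10_KO), and, of each marker list, its brightest gene. Inpp5d, B2m, Fcer1a, Ms4a2, Btk, Vav3, Pik3cg, Pik3ap1, Card9, Itgam, Cd209a, Clec9a and Siglech were named outside that rule, after their values were seen. So were Vcan, Chil3, Mpo, Elane, Cxcr2, Ngp, Camp, Ly6g, Ncr1, Cd3d, Ms4a1, Mzb1 and Cx3cr1. Members and lists were chosen with earlier results of these data known, and the promoter motifs after the windows had been read. A further motif searched is not reported here. The neighbouring genes, the levels relative to macrophage markers or another receptor, and the comparison with bright genes were added after seeing the data. Figures were drawn with matplotlib 3.10.9.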

Additional observations from a re-analysis of the deposited data

How the results depend on the processing

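No member passed under any alternative. In Il10ra_mKO against WT, the 14 alternatives gave differences of 0.51 to 0.70 for Fcgr1 (adjusted p of 0.134 to 0.783), 0.65 to 0.97 for Fcgr4 (0.171 to 0.783), 0.09 to 0.22 for Fcgr3 (0.434 to 0.934) and 0.07 to 0.19 for Fcer1g (0.525 to 0.987). Fcgr2b was -0.0103 with quantile normalization and -0.0435 to 0.158 when single arrays were left out. In Il10_KO against WT it was -0.11 with all WT arrays as 1 control group. For the difference of the mutant effects, Fcgr2b was -0.0779 with quantile normalization, -0.0316 with the run of sample numbers as a term and -0.091 to 0.110 when single arrays were left out, and Fcer1g was -0.099 to 0.0268.

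The activating mean relative to Fcgr2b, 0.48 in Il10ra_mKO and 0.29 in Il10_KO, became 0.47 and 0.24 with quantile normalization, 0.77 and 0.23 with the median, 0.41 and 0.24 with the sum of unlogged values, and 0.38 and 0.25 with Fcer1g counted in. Leaving out single arrays gave 0.47 to 0.49 in Il10ra_mKO.

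Counts of all genes passing moved far more. In Il10ra_mKO against WT 1 gene passed (1580 at an unadjusted p under 0.05), against 4 without a variance trend, 12 without dim genes, 114 with quantile normalization, 146 with arrays centred on their median, 70 with all WT arrays as 1 control group, and 0 with the run as a term (2352 unadjusted, limma). Leaving out single arrays gave 0 to 267, with 0 without any one resident WT array and 266 or 267 without Il10ra_mKO array 1 or 2. In Il10_KO against WT 1576 passed, against 758, 2, 21, 31 and 0 under the same alternatives up to the single control group (2393 unadjusted, limma), 2870 with array weights, and 559 (without resident WT array 2) to 2788 (without Il10ra_mKO array 1) when single arrays were left out. For the difference of the effects 937 passed, against 30 without a trend, 1 without dim genes, 8 with quantile normalization, 17 with centring, 0 with the run as a term (3246 unadjusted, limma), 1436 with array weights, and 0 (without resident WT array 2) to 2200 (without Il10ra_mKO array 2) when single arrays were left out. The cause was not tested. The labels give the groups no shared replicate numbers, so the run of sample numbers was the only block fitted.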
